A study of Mus musculus with 21 samples.

Results

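The genes described here are 49 that serve DNA replication and mitosis, read in mouse CD4 T cells after cytokine culture. They were taken from a list of 49 symbols, and a member had to reach a TPM (a transcript level per length and per library) of at least 1 in at least 3 libraries. All 49 were found in the table, which writes symbols in capitals (PCNA, MCM6, TOP2A, UBE2C), and all 49 passed, out of 23415 gene rows, of which 9592 passed the same filter. The first 24 names form the S phase list and the other 25 the G2/M list. Mki67, whose transcript is known to peak late in the cell cycle, is the last of the first 24 names and was kept in the S phase list, as the list was given.

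Naive CD4 T cells (CD4+ with little CD44, much CD62L and no CD25) came from the lymph nodes and spleens of mice with 1 Il23r reporter allele (Il23r wt/eGFP). The allele carries eGFP behind an IRES and makes no functional IL-23 receptor, so every group here, including the GFPneg cells, had 1 working copy of Il23r, and GFP marked cells that transcribe the locus. All cells were activated with plate-bound antibodies against CD3 and CD28 and cultured for 5 days. The groups were GFPpos and GFPneg cells of a culture with IL-12 and IL-21 (20 ng/ml each), GFPneg cells of a culture with IL-12 alone (20 ng/ml), GFPpos and GFPneg cells of a culture with IL-1b, IL-6 and IL-23 (20, 25 and 20 ng/ml), and GFPpos and GFPneg cells of a culture with TGF-b and IL-6 (2 and 25 ng/ml). Each of the 7 groups had 3 labelled replicates, and nothing in the labels says that these came from separate animals or cultures, so p-values measure the spread between libraries, which may be technical.

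A cell that enters division first licenses its replication origins by loading the MCM2-7 helicase, then fires them in S phase, and later separates the copied chromosomes in mitosis. Most S phase genes are known targets of E2F transcription factors, which the retinoblastoma protein holds back until cyclin-dependent kinases inactivate it. Genes of G2 and mitosis are known to be repressed in resting cells by the DREAM complex and raised later by B-MYB and FOXM1, mainly through a promoter element called CHR, often together with CCAAT boxes bound by NF-Y. Naive T cells rest outside the cycle, and an activated T cell divides several times over the following days.

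The promoter windows of the members held these elements at different rates in each list. Windows of 300 bases (250 before and 50 after each annotated start, RefSeq, GRCm38.p6) were searched on both strands for the E2F site (TTTCCCGC, TTTCGCGC, TTTGCCGC or TTTGGCGC), the CHR element (TTTGAA or TTCGAA) and the letters CCAAT. Windows were matched for 21 of 24 S phase genes (24 windows) and 20 of 25 G2/M genes (22 windows). An E2F match lay in 37.5% of the S phase windows and 4.55% of the G2/M windows, beside 2.26% of all 32851 windows. A CHR match lay in 20.8% of the S phase windows and 81.8% of the G2/M windows, beside 19.2% of all windows. CCAAT was found in 62.5%, 90.9% and 37.4% of these windows, and a CHR match together with CCAAT in 16.7% of S phase windows, 81.8% of G2/M windows and 7.52% of all windows. E2F matches may overlap each other on opposite strands or overlap a CCAAT. These are counts of letters in a fixed window, not of bound sites.

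**Figure D1:**
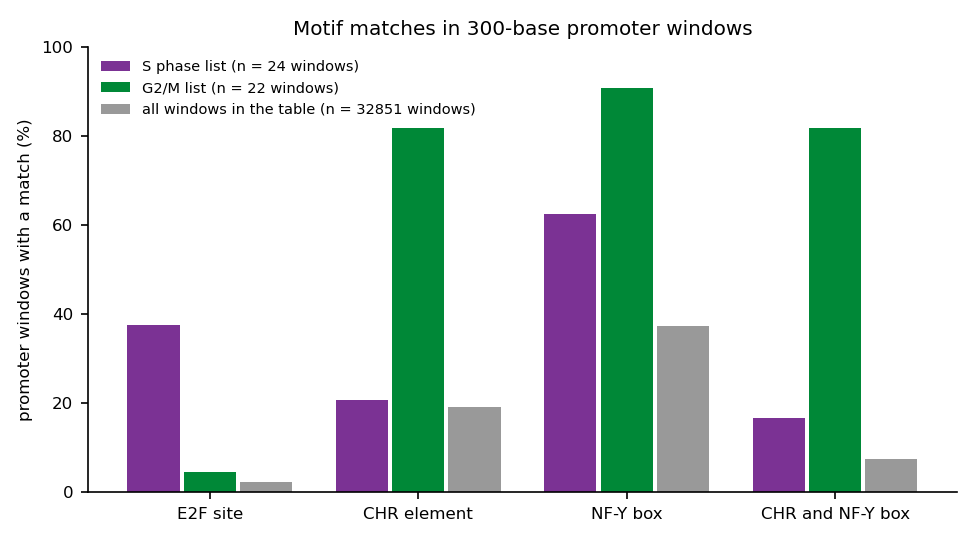
Percent of 300-base promoter windows with a match to each element, for the S phase list (purple, 24 windows), the G2/M list (green, 22 windows) and all 32851 windows of the table (grey). The G2/M bars for the CHR element (81.8%) and for CHR with the NF-Y box (81.8%) stand above the bars for all windows (19.2% and 7.52%), and the S phase bar for the E2F site (37.5%) stands above 2.26%.

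The windows below belong to members with small p-values in the test for any difference among the groups, and show where the elements lie. Mcm6 (part of the replicative helicase; minus strand, chr1:128359656-128359955) and Mcm5 (the same helicase; plus strand, chr8:75109259-75109558) stand for the S phase list, with the E2F matches in capitals. The Mcm6 matches begin at positions -110, -106 and -47 relative to the annotated start, and those of Mcm5 at -153 and -149; the close pair in each overlaps on opposite strands. Ube2c (an enzyme that hands ubiquitin to the anaphase-promoting complex; plus strand, chr2:164769679-164769978) and Plk1 (a mitotic kinase; plus strand, chr7:122159185-122159484) stand for the G2/M list, with the CHR match in capitals. It begins at -29 in Ube2c, where it reads on the opposite strand, and at 31 in Plk1. The Ube2c window also holds 6 CCAAT matches and that of Plk1 holds 1.
Mcm6: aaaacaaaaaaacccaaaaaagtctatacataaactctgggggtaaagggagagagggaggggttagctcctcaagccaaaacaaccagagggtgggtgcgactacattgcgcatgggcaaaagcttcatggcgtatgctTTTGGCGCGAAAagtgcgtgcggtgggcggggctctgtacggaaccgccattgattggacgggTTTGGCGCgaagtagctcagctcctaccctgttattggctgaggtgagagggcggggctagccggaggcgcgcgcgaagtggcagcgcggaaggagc
Mcm5: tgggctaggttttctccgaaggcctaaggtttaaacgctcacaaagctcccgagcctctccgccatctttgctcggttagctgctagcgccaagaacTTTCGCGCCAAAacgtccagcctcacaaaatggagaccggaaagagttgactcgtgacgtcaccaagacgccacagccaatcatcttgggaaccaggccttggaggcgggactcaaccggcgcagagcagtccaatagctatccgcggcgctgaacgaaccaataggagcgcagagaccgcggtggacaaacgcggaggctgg
Ube2c: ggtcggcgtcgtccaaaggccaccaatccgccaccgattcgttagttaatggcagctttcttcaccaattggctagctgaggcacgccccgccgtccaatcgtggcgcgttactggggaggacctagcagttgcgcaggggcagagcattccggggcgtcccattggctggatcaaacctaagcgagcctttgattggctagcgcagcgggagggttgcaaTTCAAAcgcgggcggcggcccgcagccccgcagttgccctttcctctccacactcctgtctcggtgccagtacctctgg
Plk1: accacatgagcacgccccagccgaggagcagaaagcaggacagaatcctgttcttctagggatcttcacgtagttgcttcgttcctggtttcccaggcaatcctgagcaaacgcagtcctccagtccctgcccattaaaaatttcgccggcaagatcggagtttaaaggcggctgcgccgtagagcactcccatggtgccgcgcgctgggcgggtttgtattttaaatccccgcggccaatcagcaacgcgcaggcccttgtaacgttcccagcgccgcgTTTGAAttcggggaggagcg

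Of the 21 libraries, 16 held between 7522 and 9248 genes at a TPM of at least 1 and were used; the other 5 held 190 to 5608 and were left out of every comparison by the rule that asks for at least 7000. In those 5, between 0 and 46 of the 49 members lay above 0, against 48 or 49 in the 16. The groups used therefore had 3 IL-12+IL-21 GFPpos, 2 IL-12+IL-21 GFPneg, 2 IL-12 GFPneg, 3 IL-1b+IL-6+IL-23 GFPpos, 3 IL-1b+IL-6+IL-23 GFPneg, 1 TGFb+IL-6 GFPpos and 2 TGFb+IL-6 GFPneg libraries. With all 21 libraries in the fit, 0 of 49 members passed the test for any difference, and with only TGFb+IL-6 GFPpos replicate 2 added (5608 genes) 7 did, so each count below rests on leaving those 5 out. All 8 CD4 T cell markers reached a TPM of 1. Of 8 myeloid and dendritic markers, 3 reached 1 (Cd14, Cd68 and Xcr1), while Lyz2, Csf1r, Itgam, Adgre1 and Fcgr1 stayed below 1 throughout. These 8 summed to 3.67 to 14.4 TPM, highest in an IL-1b+IL-6+IL-23 GFPneg library. Neutrophil markers summed to 5.66 to 48.2 TPM, highest in IL-12 GFPneg (26.5 and 48.2), through genes other than S100a8 and S100a9, which stayed below 1. Ribosomal protein genes took 31.1% to 42.0% of the TPM in the libraries used, with the highest shares in TGFb+IL-6 GFPneg (41.5% and 42.0%).

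The summed level of both lists was lowest in the IL-1b+IL-6+IL-23 culture and highest in TGFb+IL-6 GFPneg cells. The 24 S phase genes summed to 557, 539 and 630 TPM in the IL-12+IL-21 GFPpos libraries, 848 and 726 in IL-12+IL-21 GFPneg and 792 and 788 in IL-12 GFPneg. They summed to 281.5, 349 and 382 TPM in the IL-1b+IL-6+IL-23 GFPpos group, 410, 381 and 347 in the IL-1b+IL-6+IL-23 GFPneg group, 796 in the TGFb+IL-6 GFPpos library and 1126 and 962 in TGFb+IL-6 GFPneg. Every library of the IL-1b+IL-6+IL-23 culture lay below every library of the other cultures. The 25 G2/M genes summed to 343, 321 and 397 TPM in the IL-12+IL-21 GFPpos group, 611 and 484 in IL-12+IL-21 GFPneg and 546 and 589.5 in IL-12 GFPneg. Their sums were 163, 199 and 211 TPM in the IL-1b+IL-6+IL-23 GFPpos group, 293.5, 257 and 219 in the IL-1b+IL-6+IL-23 GFPneg group, 805 in TGFb+IL-6 GFPpos and 1037 and 976 in TGFb+IL-6 GFPneg. The same order of cultures held, with the TGFb+IL-6 libraries above all others. These are bulk libraries, so fewer dividing cells and less transcript per dividing cell cannot be told apart.

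**Figure D2:**
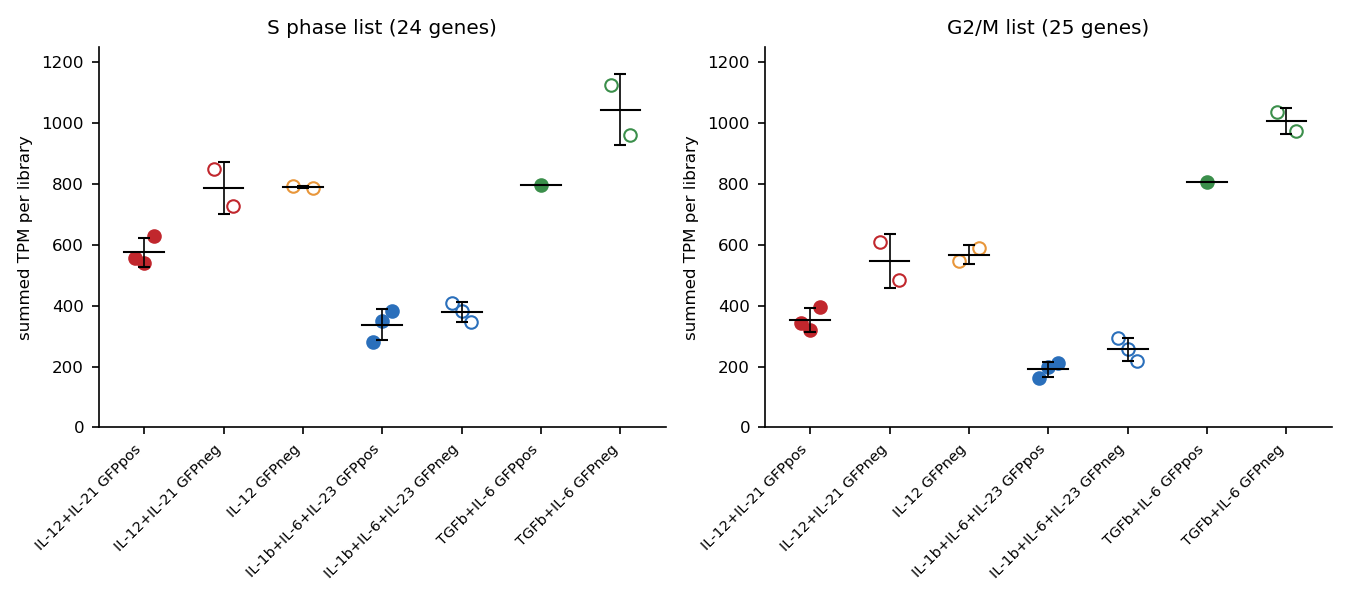
Summed TPM of the S phase list (left) and the G2/M list (right) in each of the 16 libraries used, by group; filled points are GFPpos and open points GFPneg, bars are means and whiskers SD where a group has more than 1 library. All 6 IL-1b+IL-6+IL-23 libraries lie lowest in both panels, and the 2 TGFb+IL-6 GFPneg libraries highest (1126 and 962 on the left, 1037 and 976 on the right).

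The proportion between the lists was read beside the sums, with no test. The S phase sum divided by the G2/M sum was 1.63 ± 0.0459 in the IL-12+IL-21 GFPpos group (SD, n = 3), against 1.44 ± 0.0786 in IL-12+IL-21 GFPneg (n = 2). It was 1.76 ± 0.0403 in the IL-1b+IL-6+IL-23 GFPpos group, against 1.49 ± 0.0936 in GFPneg cells of that culture (n = 3 each). In both cultures the ranges of the GFPpos and GFPneg libraries did not overlap, but they did once Ube2c was left out of the G2/M sum, an alternative chosen after seeing the data. Without it the ratio was 2.38, 2.48 and 2.11 in the IL-12+IL-21 GFPpos group, against 2.12 and 2.16 in IL-12+IL-21 GFPneg, and 2.44, 2.53 and 2.76 in the IL-1b+IL-6+IL-23 GFPpos group, against 2.66, 2.41 and 2.59 in GFPneg cells of that culture. The ratio was 0.989 in the TGFb+IL-6 GFPpos library and 1.04 ± 0.0707 in TGFb+IL-6 GFPneg (n = 2). Ube2c alone held 24.8% to 47.5% of the G2/M sum, and Pcna, Rrm2 and Mcm6 held medians of 13.7%, 14.6% and 10.3% of the S phase sum. No test was run on a sum or a ratio.

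Gene by gene, 34 of the 49 members had their highest group mean in TGFb+IL-6 GFPneg and 6 in the TGFb+IL-6 GFPpos library. The exceptions were Pcna, Cdc6, Cenpf and Ect2 (highest in IL-12 GFPneg), Tyms and Fen1 (IL-12+IL-21 GFPneg), and Ccne1, Ccne2 and Ttk (IL-12+IL-21 GFPpos). The lowest mean fell in an IL-1b+IL-6+IL-23 group for 47 members, 32 of them in GFPpos and 15 in GFPneg, and in TGFb+IL-6 GFPneg for Ccne1 and Ttk. In limma's F-test across the 7 groups, 41 of 49 members passed an adjusted p of 0.05 (20 S phase, 21 G2/M), where 24.9% of all genes tested did. The 8 that did not were Tyms, Cdc6, Pola1 and Ccne1 of the S phase list and Bub1, Cenpe, Cenpf and Ttk of the G2/M list. Apart from Tyms (19.7 to 58.7 TPM, median 33.5) and Ccne1 (0.45 to 14.3 TPM), none of these 8 exceeded 7.6 TPM in any library.

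**Figure D3:**
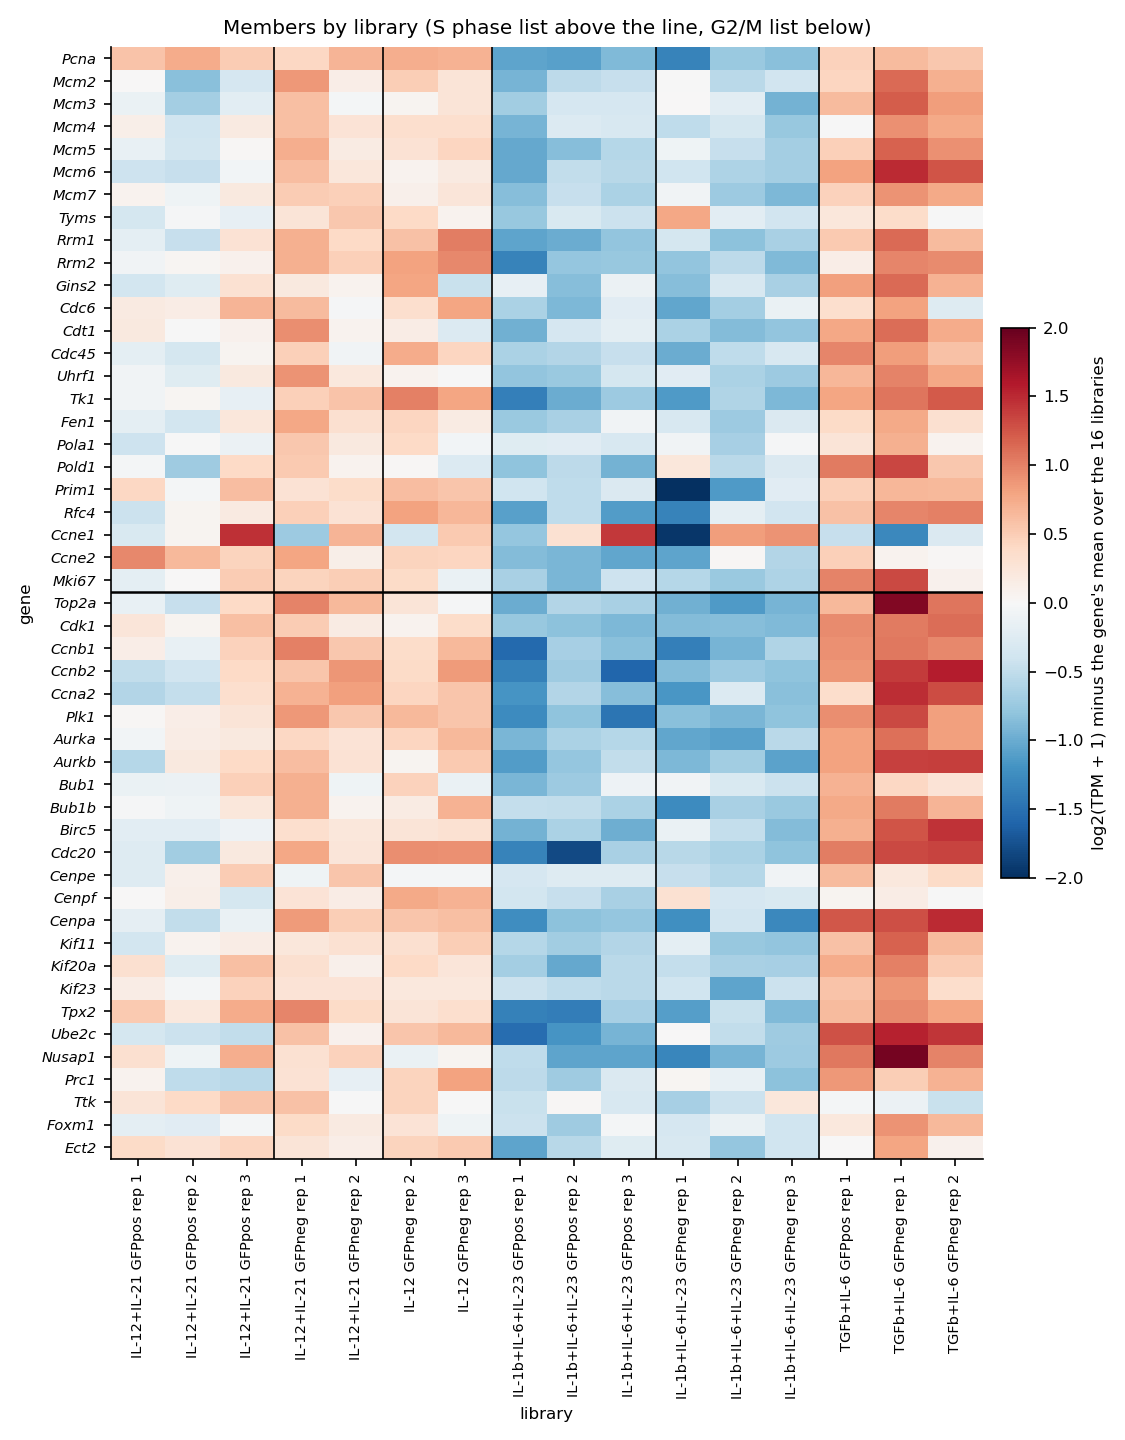
Each row is a member and each column a library used; colour is log2(TPM + 1) minus the gene's mean over the 16 libraries, red above and blue below. The 6 IL-1b+IL-6+IL-23 columns are blue in most rows and the TGFb+IL-6 columns red, while Ccne1 and Tyms depart from the column pattern.

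The 6 subunits of the MCM2-7 helicase, which unwinds DNA at replication forks, differed in level between groups while Mcm6 led in each library. Their sum was 169 ± 25.3 TPM in the IL-12+IL-21 GFPpos group (SD, n = 3) and 265 ± 56.6 in IL-12+IL-21 GFPneg (n = 2), 227 ± 9.98 in IL-12 GFPneg (n = 2), 125 ± 21.1 in the IL-1b+IL-6+IL-23 GFPpos group and 140 ± 28.8 in the IL-1b+IL-6+IL-23 GFPneg group (n = 3 each), 291 in the TGFb+IL-6 GFPpos library and 421.5 ± 55.5 in TGFb+IL-6 GFPneg (n = 2). On this per-length scale Mcm6 was the highest subunit in all 16 libraries, with a median of 29.8% of the sum (24.9% to 37.2%). Mcm3 (median 21.4%) and Mcm7 (15.6%) ranked next in every library, Mcm5 held 13.1%, Mcm4 10.1% and Mcm2 8.75%. The loading factors that place the helicase on DNA were lower: Cdt1 ranged from 2.32 TPM in an IL-1b+IL-6+IL-23 GFPpos library to 13.0 in a TGFb+IL-6 GFPneg one, and Cdc6 from 0.92 to 5.92. Exons of Mcm7 overlap those of Ap4m1, Cops6, Mir25 and Mir93, and no source says whether strand was used in counting, so its level is uncertain.

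Pcna, the sliding clamp that holds DNA polymerase on its template, was low in every library of the IL-1b+IL-6+IL-23 culture. It had 125, 140 and 119 TPM in the IL-12+IL-21 GFPpos group, 112 and 134 in IL-12+IL-21 GFPneg and 138 and 135 in IL-12 GFPneg, against 39.7, 38.9 and 44.7 in the IL-1b+IL-6+IL-23 GFPpos group and 32.4, 49.5 and 46.4 in the IL-1b+IL-6+IL-23 GFPneg group. In the TGFb+IL-6 culture it had 115 TPM in GFPpos and 130 and 122 in GFPneg. The 6 libraries of the IL-1b+IL-6+IL-23 culture lay between 32.4 and 49.5 TPM and the other 10 between 112 and 140, without overlap. The genes of nucleotide supply were graded instead. Rrm2, the regulated subunit of ribonucleotide reductase, had 80.3, 86.3 and 89.6 TPM in the IL-12+IL-21 GFPpos group, 138 and 117 in IL-12+IL-21 GFPneg, 148 and 165 in IL-12 GFPneg, 32.7, 48.8 and 49.4 in the IL-1b+IL-6+IL-23 GFPpos group, 48.0, 58.0 and 45.2 in the IL-1b+IL-6+IL-23 GFPneg group, 92.3 in TGFb+IL-6 GFPpos and 167 and 163 in TGFb+IL-6 GFPneg. Tk1, the thymidine kinase of dividing cells, had 15.7, 17.0 and 14.6 TPM in the IL-12+IL-21 GFPpos group, 23.4 and 25.2 in IL-12+IL-21 GFPneg, 34.3 and 29.3 in IL-12 GFPneg, 5.77, 7.78 and 9.64 in the IL-1b+IL-6+IL-23 GFPpos group, 7.03, 10.5 and 8.39 in the IL-1b+IL-6+IL-23 GFPneg group, 29.3 in TGFb+IL-6 GFPpos and 35.9 and 39.9 in TGFb+IL-6 GFPneg. For both genes the GFPpos libraries of the IL-12+IL-21 culture lay between the IL-1b+IL-6+IL-23 libraries and the IL-12+IL-21 GFPneg libraries. Tyms, the thymidylate synthase, did not share this order: its highest library was IL-1b+IL-6+IL-23 GFPneg replicate 1 with 58.7 TPM, against 29.1 and 25.7 in the other 2 of that group. A pseudogene row named after Tyms stands in the table, so its reads may be split.

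Among the G2/M genes, Cdk1, the kinase that drives entry into mitosis, and its partners Ccnb1, Ccnb2 and Ccna2 each had their highest group mean in TGFb+IL-6 GFPneg and their lowest in 1 of the sorts of the IL-1b+IL-6+IL-23 culture. In between they differed: Cdk1 averaged 15.61 ± 3.30 TPM in IL-12+IL-21 GFPpos (SD, n = 3) and 15.97 ± 2.90 in IL-12+IL-21 GFPneg (n = 2), and Ccna2 had 21.1 TPM in the TGFb+IL-6 GFPpos library, below the IL-12+IL-21 GFPneg mean of 28.3 ± 1.75 (n = 2). Ccnb1 had 20.0, 16.2 and 25.3 TPM in the IL-12+IL-21 GFPpos group, 37.5 and 26.9 in IL-12+IL-21 GFPneg, 23.7 and 29.1 in IL-12 GFPneg, 5.5, 11.1 and 9.77 in the IL-1b+IL-6+IL-23 GFPpos group, 6.42, 9.01 and 11.5 in the IL-1b+IL-6+IL-23 GFPneg group, 35.2 in TGFb+IL-6 GFPpos and 38.5 and 36.3 in TGFb+IL-6 GFPneg. Top2a, the topoisomerase that untangles chromosomes before they part, had 10.5, 8.22 and 15.7 TPM in the IL-12+IL-21 GFPpos group, 24.4 and 19.1 in IL-12+IL-21 GFPneg, 14.3 and 11.5 in IL-12 GFPneg, 5.4, 7.48 and 7.09 in the IL-1b+IL-6+IL-23 GFPpos group, 5.57, 4.81 and 5.68 in the IL-1b+IL-6+IL-23 GFPneg group, 18.9 in TGFb+IL-6 GFPpos and 44.7 and 25.8 in TGFb+IL-6 GFPneg. The IL-1b+IL-6+IL-23 libraries were the lowest for both genes. Ube2c, which works with the anaphase-promoting complex to destroy cyclin B, was the highest member of the list: it had 109, 104 and 98.3 TPM in the IL-12+IL-21 GFPpos group, 210 and 148 in IL-12+IL-21 GFPneg, 205 and 219 in IL-12 GFPneg, 47.6, 60.9 and 73.0 in the IL-1b+IL-6+IL-23 GFPpos group, 139, 98.4 and 85.1 in the IL-1b+IL-6+IL-23 GFPneg group, 340 in TGFb+IL-6 GFPpos and 405 and 375 in TGFb+IL-6 GFPneg. In each of the 3 cultures with both sorts, every GFPpos library had less Ube2c than every GFPneg library. Exons of Ube2c overlap those of Tnnc2, and exons of 16 members in all overlap another gene, 12 of them a gene with its own row.

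A further 3 members of the S phase list and 4 of the G2/M list each had their lowest of the 16 libraries in the IL-1b+IL-6+IL-23 culture. Gins2, a subunit of the GINS complex of the fork helicase, ranged between 7.64 and 33.4 TPM. Pold1, the catalytic subunit of DNA polymerase delta, ranged between 3.41 and 20.4 TPM, and Fen1, the nuclease that trims the flaps of lagging-strand fragments, between 17.6 and 52.3 TPM. Fen1 had its highest value in an IL-12+IL-21 GFPneg library, while Gins2 and Pold1 had theirs in a TGFb+IL-6 GFPneg library. Foxm1, a transcription factor of G2/M genes, was low throughout, between 0.22 and 2.71 TPM. Kif11, the motor that separates spindle poles, ranged between 1.24 and 7.71 TPM, and Kif23, a motor of the central spindle, between 0.26 and 3.85 TPM. Prc1, which bundles the microtubules of the central spindle, ranged between 5.85 and 20.9 TPM. Foxm1, Kif11 and Kif23 were highest in a TGFb+IL-6 GFPneg library and Prc1 in the TGFb+IL-6 GFPpos library.

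**Figure D4:**
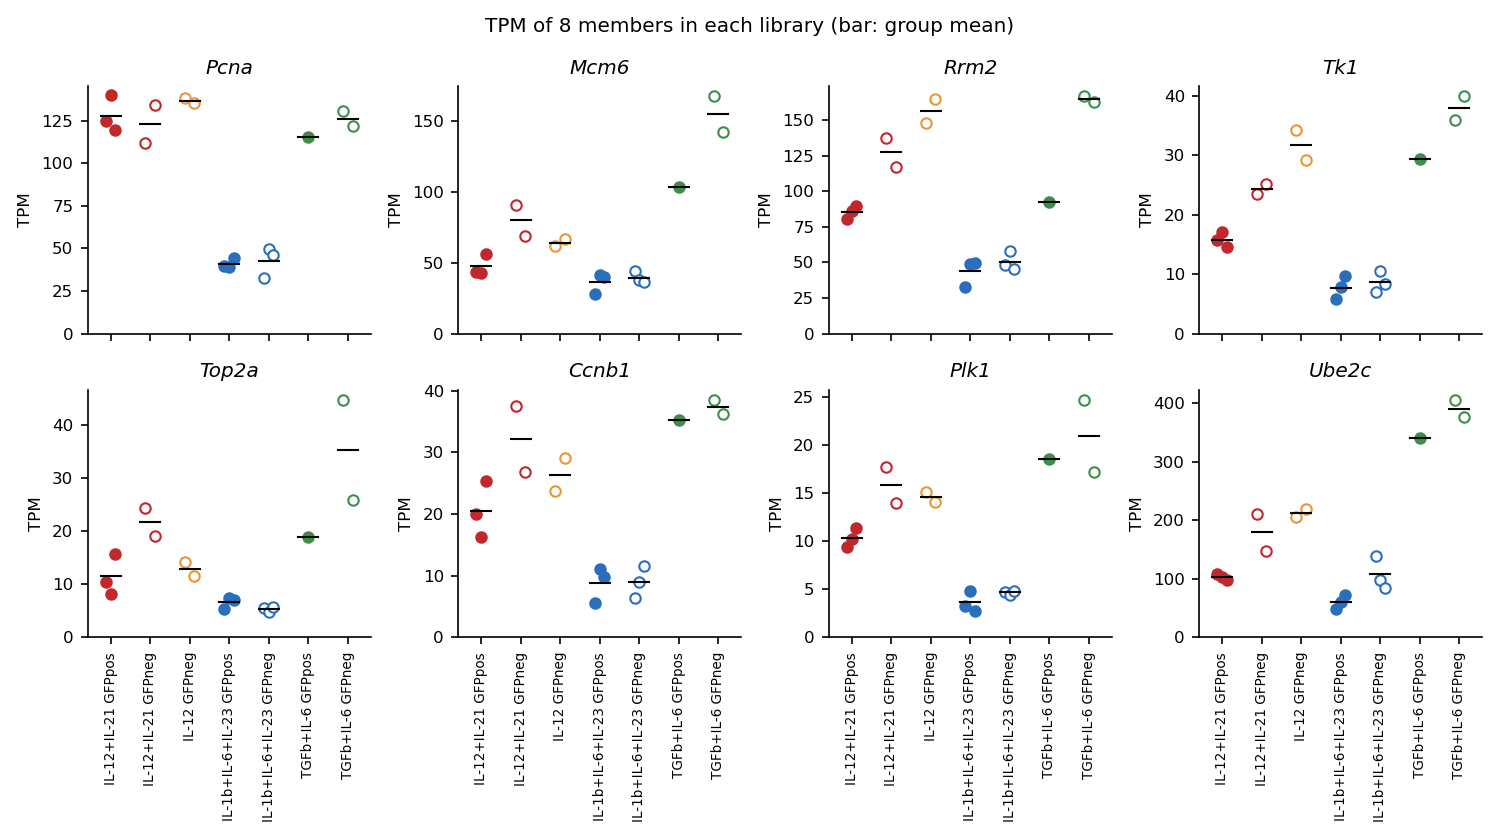
TPM of 8 members in each of the 16 libraries used, by group (filled points GFPpos, open points GFPneg, bars the group means; each axis starts at 0). Pcna separates the 6 IL-1b+IL-6+IL-23 libraries (32.4 to 49.5 TPM) from the rest, Tk1 and Mcm6 are graded, and Ube2c is lower in GFPpos than in GFPneg libraries of each culture.

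Cell-cycle transcripts were far lower in IL-1b+IL-6+IL-23 GFPneg cells than in TGFb+IL-6 GFPneg cells (n = 3 and 2). Of the members, 40 of 49 were lower (19 of 24 S phase, 21 of 25 G2/M) and 0 higher, where 4.83% of all genes tested were called lower. The median log2 change, on the log2(TPM + 1) scale throughout, was -1.40 for the S phase list and -1.83 for the G2/M list, against 0.23 for all genes. The replicates of the 2 groups did not overlap for 44 members, all lower, where 12.6% of genes did so. In the S phase list the smallest adjusted p-values (limma, Benjamini-Hochberg over 9592 genes) belonged to Mcm6, with a log2 change of -1.94 ± 0.21 (SE; adjusted p = 1.2e-05), Rrm2 (-1.70), Tk1 (-2.03), Pcna (-1.56), Mcm5 (-1.46), Mcm7 (-1.39), Rrm1 (-1.48), Uhrf1 (-1.41), Cdt1 (-1.69) and Mcm4 (-1.37). Uhrf1 is known for keeping DNA methylation on the copied strand, and Rrm1 is the large subunit of ribonucleotide reductase. In the G2/M list they belonged to Birc5, the survivin of the chromosomal passenger complex, with -1.83 ± 0.20 (adjusted p = 1.52e-05), and to Cenpa (-2.36), Cdk1 (-1.95), Top2a (-2.47), Ube2c (-1.88), Aurka (-1.84), Aurkb (-2.27), Plk1 (-1.93), Nusap1 (-2.43) and Ccnb2 (-2.29). Cenpa is the histone variant that marks centromeres, Aurka, Aurkb and Plk1 are mitotic kinases, and Nusap1 binds spindle microtubules. Mki67, which encodes the Ki-67 antigen, had 0.81, 0.6 and 0.75 TPM in the IL-1b+IL-6+IL-23 GFPneg group, against 5.73 and 1.86 in TGFb+IL-6 GFPneg, a log2 change of -1.35 ± 0.35 (adjusted p = 0.0153). The CD4 T cell markers, which summed to 2238 to 2966 TPM in the IL-1b+IL-6+IL-23 GFPneg group and 3265 to 3365 in TGFb+IL-6 GFPneg, and the ribosomal protein share moved the same way; their part in the result was not tested.

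The rest of the cell-cycle machinery was read from lists of other genes. Over all genes tested in the contrast of IL-1b+IL-6+IL-23 GFPneg with TGFb+IL-6 GFPneg, 10.6% were called higher and 4.83% lower. Of 36 further S phase genes, 18 fell and 0 rose, with Lig1 (DNA ligase; -2.14), Tipin (-1.50), Slbp (-1.24) and Dut (-1.74) the most certain, and of 35 further G2/M genes tested, 21 fell and 0 rose, led by Stmn1 (-2.42), Tacc3 (-2.30), Cks1b (-2.21) and Cdca3 (-2.29). Their median log2 changes were -0.81 and -1.34. Of 22 genes tested in a list of G1 cyclins, cyclin-dependent kinases, E2F and DREAM regulators, 2 rose, a share near that of all genes, and 4 fell. Ccnd2, the D-type cyclin that T cells make on activation, had 388, 371 and 339 TPM in the IL-1b+IL-6+IL-23 GFPneg group, against 146 and 152 in TGFb+IL-6 GFPneg, a log2 change of 1.29 ± 0.14 (adjusted p = 1.6e-05). Myc, a driver of growth, rose by 1.10 ± 0.19 (adjusted p = 0.000849), while Fbxo5 (-1.91), an inhibitor of the anaphase-promoting complex, and Cdk2 (-1.19) fell. Among 5 inhibitors of cyclin-dependent kinases tested, Cdkn1a, which encodes p21, had 1169, 1086 and 1213 TPM in the IL-1b+IL-6+IL-23 GFPneg group, against 421 and 482 in TGFb+IL-6 GFPneg, a log2 change of 1.36 ± 0.15 (adjusted p = 1.46e-05). The other 3 called were lower: Cdkn3 (-2.68), Cdkn2d (-0.70) and Cdkn1b (-1.42). Of 11 quiescence genes tested, Slfn2 alone was called (1.87 ± 0.27, adjusted p = 0.000191), again a share near that of all genes called higher.

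The IL-12+IL-21 culture stood above the IL-1b+IL-6+IL-23 culture in both sorts. Among GFPneg cells (n = 2 and 3), 25 of 49 members were higher (11 S phase, 14 G2/M) and 0 lower, where 2.16% of all genes were called higher; the medians were 0.99 and 1.17 on the log2 scale, against -0.01 for all genes. In the S phase list the 10 most certain were Pcna, with 1.52 ± 0.19 (adjusted p = 0.000126), Rrm2 (1.33), Tk1 (1.41), Mcm6 (0.99), Mcm7 (1.06), Rrm1 (1.16), Uhrf1 (1.08), Cdt1 (1.26), Prim1 (1.47) and Mcm4 (0.97). Prim1 is the catalytic subunit of primase, which starts each new strand. In the G2/M list they were Top2a, with 1.83 ± 0.29 (adjusted p = 0.00136), Plk1 (1.56), Cenpa (1.65), Ccnb1 (1.75), Cdk1 (1.21), Aurka (1.23), Ccna2 (1.51), Ccnb2 (1.52), Tpx2 (1.49) and Aurkb (1.34). Over 17 alternative fits, Mcm4 lost its call in 12, Prim1 in 11 and Cdt1 in 8, against 2 for Rrm2 and for Plk1. The replicates did not overlap for 40 members, all higher, where 13.6% of genes were higher without overlap. The count fell to 7 without IL-12+IL-21 GFPneg replicate 1, to 13 without replicate 2 of that group, and to 16 and 15 without replicates 2 and 3 of IL-1b+IL-6+IL-23 GFPneg. The CD4 T cell markers summed to 3067 to 3560 TPM in IL-12+IL-21 GFPneg and 2238 to 2966 in the IL-1b+IL-6+IL-23 GFPneg group, without overlap; their part in the result was not tested.

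Among GFPpos cells (n = 3 each), 16 of 49 members were higher in IL-12+IL-21 than in IL-1b+IL-6+IL-23 (4 S phase, 12 G2/M) and 0 lower, where 3.59% of all genes were called higher. The medians were 0.61 and 0.69, against 0.15 for all genes, and all 49 estimates lay above 0, as did 68.3% of all genes. The S phase genes called were Pcna (1.61 ± 0.17, adjusted p = 1.16e-05), Ccne2 (1.63 ± 0.29, adjusted p = 0.00206), Rrm2 (0.97) and Tk1 (0.97). Ccne2, a cyclin E that carries cells into S phase, had 5.37, 4.14 and 3.48 TPM in the IL-12+IL-21 GFPpos group. In the IL-1b+IL-6+IL-23 GFPpos group it had 0.79, 0.73 and 0.6, with no overlap. Ccne1, the other cyclin E gene, had 3.52, 4.81 and 14.3 TPM, against 2.28, 5.91 and 13.8, which overlap. In the G2/M list the smallest adjusted p belonged to Tpx2 (1.63 ± 0.27, adjusted p = 0.00131), which activates Aurora A on the spindle. Next came Plk1 (1.31), Cdk1 (1.12), Ccnb1 (1.16), Nusap1 (1.19), Ube2c (0.79), Ccnb2 (1.05), Aurka (0.80), Kif20a (0.97) and Birc5 (0.68). Of these, Birc5 and Aurka lost their calls in all 6 fits without 1 library, and Ube2c and Kif20a in 5. Tpx2, Plk1 and Cdk1 kept theirs in all 6. Leaving out 1 library lowered the count to 7 (IL-1b+IL-6+IL-23 GFPpos replicate 1 or IL-12+IL-21 GFPpos replicate 3) or 9 (IL-1b+IL-6+IL-23 GFPpos replicate 2 or IL-12+IL-21 GFPpos replicate 1), and median-ratio scaling lowered it to 10. Ccnd3, the other D-type cyclin of T cells, was higher in IL-12+IL-21 than in IL-1b+IL-6+IL-23 in both sorts: by 1.41 ± 0.16 in GFPpos (adjusted p = 2.41e-05) and by 1.40 ± 0.17 in GFPneg (adjusted p = 0.000132). Cdkn1a was lower in IL-12+IL-21 GFPneg, with 743 and 659 TPM, against 1169, 1086 and 1213 in the IL-1b+IL-6+IL-23 GFPneg group (-0.72 ± 0.15, adjusted p = 0.0113). The CD4 T cell markers summed to 3445 to 4015 TPM in the IL-12+IL-21 GFPpos group and 2138 to 2647 in the IL-1b+IL-6+IL-23 GFPpos group; the part of this in the result was not tested.

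IL-12 alone was also set against IL-1b+IL-6+IL-23 in GFPneg cells (n = 2 and 3), the same IL-1b+IL-6+IL-23 libraries that served the contrast of IL-12+IL-21 GFPneg cells. Of the members, 23 of 49 were higher (8 S phase, 15 G2/M) and 0 lower, where 4.3% of all genes were called higher. The medians were 0.77 and 1.00, against 0.09 for all genes. The S phase genes were Pcna (1.68 ± 0.19, adjusted p = 2.89e-05), Rrm2 (1.62), Tk1 (1.78), Rrm1 (1.41), Cdc45 (1.19), Prim1 (1.73), Rfc4 (1.37) and Mcm4 (0.88). Cdc45 is part of the active helicase and Rfc4 of the complex that loads the PCNA clamp. Mcm4 lost its call in 13 of 17 alternative fits and changed sign in 1 other, while Tk1 lost its call in 1. In the G2/M list the most certain were Aurka (1.42 ± 0.24, adjusted p = 0.00128), Plk1 (1.46), Cenpa (1.55), Cdc20 (1.59), Ccnb1 (1.48), Cdk1 (1.10), Ccnb2 (1.42), Ube2c (1.00), Bub1b (1.31) and Ccna2 (1.25). Cdc20 activates the anaphase-promoting complex and Bub1b, a part of the spindle checkpoint, restrains it. The count was 13 without IL-12 GFPneg replicate 2 and 8 without replicate 3. The CD4 T cell markers summed to 3330 to 3726 TPM in IL-12 GFPneg, also above the 2238 to 2966 of the IL-1b+IL-6+IL-23 GFPneg group, and the part of this was not tested. Cdkn2c, which encodes p18, had 3.22 and 1.61 TPM in IL-12 GFPneg and was listed at 0 in all 3 IL-1b+IL-6+IL-23 GFPneg libraries (adjusted p = 0.00562).

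Adding IL-21 to IL-12 was not accompanied by a detected change in any member. Between IL-12+IL-21 GFPneg and IL-12 GFPneg (n = 2 each), 0 of 49 members passed limma's adjusted p of 0.05, where 0.761% of all genes did, and 1 member had an unadjusted p under 0.05 where 13.7% of genes did. The medians were 0.09 and 0.10, against -0.09 for all genes. The smallest adjusted p-values belonged to Top2a, with a log2 change of 0.71 ± 0.32 (adjusted p = 0.337), Cenpf (-0.52) and Prc1 (-0.56) in the G2/M list, and to Uhrf1 (0.52), Cdt1 (0.57) and Tk1 (-0.37) in the S phase list. Top2a had 24.4 and 19.1 TPM in IL-12+IL-21 GFPneg, against 14.3 and 11.5 in IL-12 GFPneg, without overlap. In all, 10 members were higher without overlap, where 14.6% of genes were, and 11 were lower, where 27.8% were.

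Between IL-12+IL-21 GFPneg and TGFb+IL-6 GFPneg (n = 2 each), 3 of 49 members were lower and 0 higher, where 2.01% of all genes were called lower. These were Mcm6 (-0.95 ± 0.23, adjusted p = 0.0184), Birc5 (-1.06 ± 0.22, adjusted p = 0.00707) and Ube2c (-1.14 ± 0.24, adjusted p = 0.00747). The medians were -0.35 and -0.54, against 0.21 for all genes, and 42 of 49 estimates lay below 0, where 32.6% of all genes did. The replicates did not overlap for 28 members that were lower, where 13.7% of genes were. They did not overlap for 2 that were higher, where 36.6% of genes were. Mcm6 had 91.2 and 69.3 TPM in IL-12+IL-21 GFPneg, against 168 and 142 in TGFb+IL-6 GFPneg. Birc5 had 70.2 and 65.0 TPM, against 133 and 152. Below the threshold stood Tk1 (-0.62, adjusted p = 0.172), Mcm3 (-0.74) and Nusap1 (-1.06). The count is unsettled: it was 1 without TGFb+IL-6 GFPneg replicate 1 and 0 without IL-12+IL-21 GFPneg replicate 2, and 13 or 11 after median-ratio or quantile scaling, where the median of all genes was -0.01 and 0.0049, against 0.21 without scaling. In the list of G1 cyclins, cyclin-dependent kinases, E2F and DREAM regulators, the median was -0.03. Of its 22 genes tested, 3 were higher in IL-12+IL-21 GFPneg and 0 lower, where 4.81% of all genes were called higher. The 3 were Ccnd2 (1.43 ± 0.16, adjusted p = 1.95e-05), Myc (1.26 ± 0.21, adjusted p = 0.000972) and Ccnd3 (1.13 ± 0.19, adjusted p = 0.00126).

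**Figure D5:**
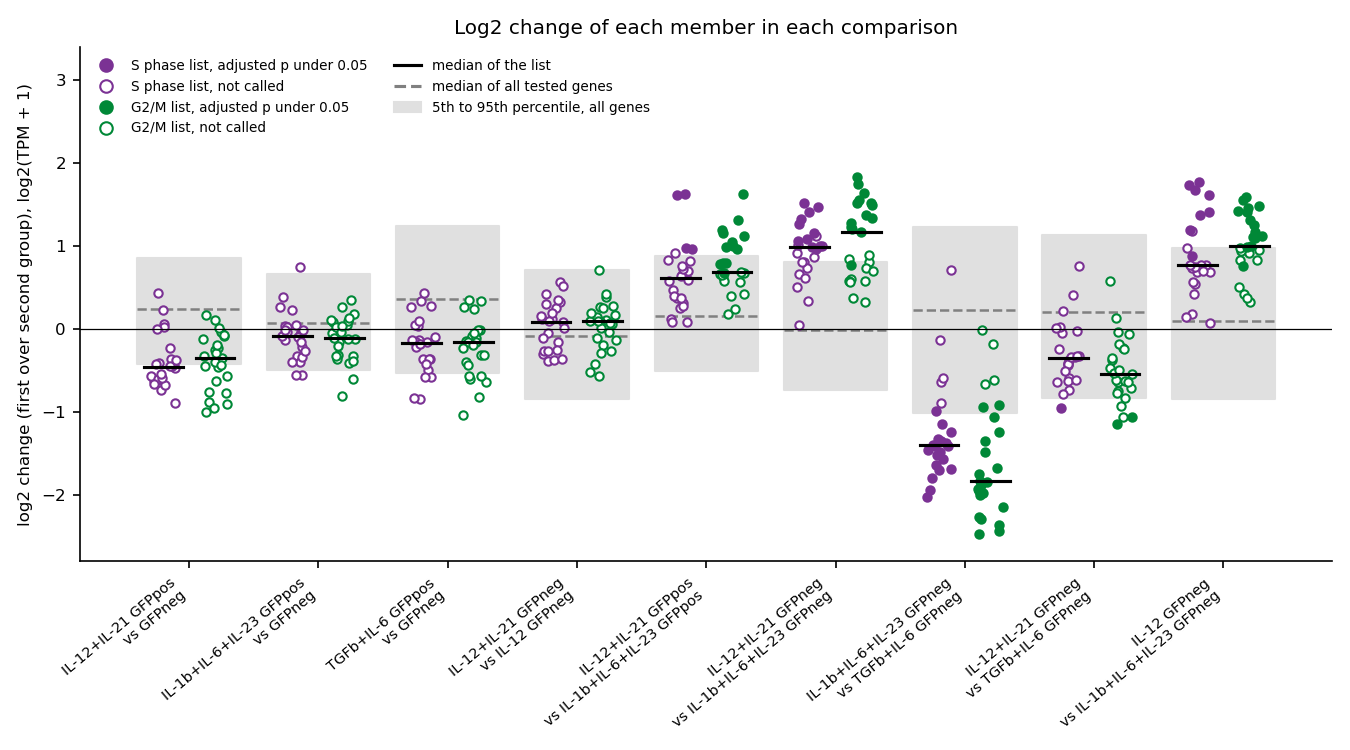
Log2 change of each member on the log2(TPM + 1) scale in each pairwise comparison, first-named group over the second (purple S phase, green G2/M; filled points have an adjusted p under 0.05); black bars are list medians, dashed lines the median and grey bands the 5th to 95th percentiles of all 9592 genes. Both list medians lie outside the grey band for IL-1b+IL-6+IL-23 GFPneg against TGFb+IL-6 GFPneg (-1.40 and -1.83). Both also do for IL-12+IL-21 GFPneg against IL-1b+IL-6+IL-23 GFPneg (0.99 and 1.17). The G2/M median alone does for IL-12 GFPneg against IL-1b+IL-6+IL-23 GFPneg (1.00). The S phase median alone does for GFPpos against GFPneg in IL-12+IL-21 (-0.46). No point is filled in the 3 GFP comparisons.

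Within the IL-12+IL-21 culture, most of these transcripts had lower values in GFPpos than in GFPneg cells, without any member passing the threshold. Of the members, 0 of 49 were called (n = 3 and 2), where 0.156% of all genes were, and 17 had an unadjusted p under 0.05 and a lower value, where 1.92% of all genes did. The replicates did not overlap for 27 members lower in GFPpos, where 3.93% of genes were lower without overlap, and for 1 member higher, where 26.3% of genes were. The medians were -0.46 for the S phase list and -0.35 for the G2/M list, while that of all genes was 0.24; 41 of 49 estimates lay below 0, where 25.1% of all genes did. Nearest to the threshold in each list were Mcm6 (-0.74 ± 0.21, adjusted p = 0.135), Mcm2 (-0.88 ± 0.29) and Rrm2 (-0.57 ± 0.19), and Cenpa (-0.95 ± 0.27, adjusted p = 0.128), Ube2c (-0.76 ± 0.22) and Ccna2 (-0.999 ± 0.30). Mcm6 had 43.8, 42.7 and 56.5 TPM in GFPpos, against 91.2 and 69.3 in GFPneg, and Cenpa had 21.6, 17.2 and 22.2, against 45.4 and 35.2. Pcna (0.06 ± 0.19) and Cdk1 (-0.04 ± 0.22) lay near 0. Scaling that centred all genes near 0 moved the medians to -0.71 and -0.56 with median ratios and called 2 members, Mcm6 (-1.02, adjusted p = 0.0365) among them; quantile normalization also called 2.

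In the IL-1b+IL-6+IL-23 culture (n = 3 each) the medians of the GFP difference lay near 0, and the test of that difference between cultures called 0 of 49 members and 0 of 9592 genes (0%). In this culture 0 of 49 members were called between GFPpos and GFPneg, where 0.427% of all genes were, and 3 had an unadjusted p under 0.05 (8.43% of all genes). The medians were -0.08 and -0.10, against 0.07 for all genes, and 32 of 49 estimates lay below 0, where 39.8% of all genes did. The nearest to the threshold were Prim1 (0.75, adjusted p = 0.569), Tyms (-0.55) and Mcm5 (-0.40) in the S phase list and Ube2c (-0.81 ± 0.20, adjusted p = 0.129), Cdc20 (-0.60) and Birc5 (-0.36) in the G2/M list. The difference between the cultures in the GFP effect, IL-12+IL-21 minus IL-1b+IL-6+IL-23, had its smallest adjusted p-values for Top2a (-1.16 ± 0.39, adjusted p = 0.871) and Cenpa (-0.97 ± 0.36, adjusted p = 0.871). For this difference 4 members had an unadjusted p under 0.05, where 4.94% of all genes did. All 4 had a negative difference. Among all genes, 1% had such a p with a negative difference and 3.94% with a positive one. The medians of the difference were -0.39 for the S phase list and -0.20 for the G2/M list, against 0.16 for all genes. Of the 49 estimates, 37 lay below 0, where 33.2% of all genes did. Top2a had 10.5, 8.22 and 15.7 TPM in the IL-12+IL-21 GFPpos group against 24.4 and 19.1 in GFPneg, but 5.4, 7.48 and 7.09 in the IL-1b+IL-6+IL-23 GFPpos group against 5.57, 4.81 and 5.68 in GFPneg. Of 36 further S phase genes, 1 was called higher with GFP in the IL-1b+IL-6+IL-23 culture, where 0.344% of all genes were. It was Rfc3, a clamp-loader subunit, with 61.7, 80.0 and 88.5 TPM in GFPpos. GFPneg cells had 44.1, 40.5 and 34.1 TPM (limma, 0.93 ± 0.18, adjusted p = 0.0288). Of the 36 estimates, 18 lay above 0 and 18 below.

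Averaged over these 2 cultures, the GFP effect was called for 1 of 49 members, Ube2c, which was lower (-0.79 ± 0.15, adjusted p = 0.0153), where 0.24% of all genes were called lower. Its estimate was lower in GFPpos in each of the 2 cultures. The call was lost without IL-12+IL-21 GFPneg replicate 1 (-0.66, adjusted p = 0.102), and held in 20 of 21 alternatives kept to the 16 libraries. Next came Cdc20 (-0.68, adjusted p = 0.101), Ccnb2 (-0.65), Mcm5 (-0.51), Mcm2 (-0.61) and Mcm6 (-0.43). The count was 6 after median-ratio scaling and 8 after quantile normalization, which both added Mcm5, Mcm2, Mcm6 and Cdc20, and it was 2 without IL-1b+IL-6+IL-23 GFPpos replicate 3. Cdkn2d, which encodes the inhibitor p19, was higher with GFP: it had 141, 131 and 148 TPM in the IL-12+IL-21 GFPpos group, against 96.5 and 81.8 in GFPneg, and 88.2, 70.7 and 106 in the IL-1b+IL-6+IL-23 GFPpos group, against 60.5, 64.0 and 62.0 in GFPneg (0.56 ± 0.12, adjusted p = 0.0243).

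In the TGFb+IL-6 culture a single GFPpos library stood against 2 GFPneg libraries, and its spread was taken from the other groups. No member passed the threshold, where 0.323% of all genes did, and the medians were -0.17 and -0.15, against 0.37 for all genes. Of the 49 estimates, 38 lay below 0, where 23.4% of all genes did. The GFPpos library lay below both GFPneg libraries for 28 members, where 14% of genes did. It lay above both for 6 members, where 63.7% of genes did. The smallest adjusted p-values belonged to Rrm2 (-0.83, adjusted p = 0.167), Mcm4 (-0.84) and Mcm6 (-0.57), and to Ccna2 (-1.04, adjusted p = 0.226), Birc5 (-0.63) and Top2a (-0.82). Ccna2, the cyclin A of S phase and G2, had 21.1 TPM in the GFPpos library, against 47.1 and 41.6 in GFPneg. Ccnd2 was higher with GFP, at 302 TPM against 146 and 152 (1.02 ± 0.19, adjusted p = 0.0389).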

How the data were processed

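RNA of sorted CD4 T cells was read by SMART-Seq2 libraries made with Nextera XT, per the labels' protocols. The authors deposited 1 table of TPM per gene, which the submitters' processing notes tie to Trimmomatic 0.32, Bowtie2 2.2.9, RSEM 1.2.31 and GRCm38; settings, annotation and strand are not given in the sources used here. TPM keeps no depth, so the depth of each library is unknown and no counting interval is given.

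Groups follow the labels. Libraries with at least 7000 genes at a TPM of at least 1 were used, and a gene was tested if 3 or more of these gave it a TPM of 1 or higher. Values were analysed as log2(TPM + 1) with limma 3.58.1 in R 4.3.3: 1 model of 7 group means, empirical Bayes with trend, Benjamini-Hochberg over 9592 genes, threshold 0.05. Fold changes on this scale understate the change of low genes. The fit was tested on simulated data. Alternatives were the pseudocount (0.1 and 5), the gene filter, scaling, library choice, array weights, a replicate block and each library left out. Gene overlaps come from GENCODE M21 (GRCm38), and promoter windows from RefSeq (GRCm38.p6). Python 3.11.15, pandas 2.3.3 and matplotlib 3.10.9 served for summaries and figures.

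The members and lists were chosen with earlier results of these data known. Any member may be named; each comparison names up to 10 called members per list by smallest adjusted p, or the 3 smallest where fewer than 3 were called, and at most 4 genes of each other list. Of the marker lists, CD8 T cell genes summed to 4.99 to 17.5 TPM (Cd8a below 1), natural killer genes to 0 to 1.39 and erythroid genes to 0 to 1.05. One other marker list is not reported here.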

Additional observations from a re-analysis of the deposited data

Results flagged for a closer look

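Ect2, which activates RhoA for the division of the cell body, had 1.98, 1.80 and 2.10 TPM in the IL-12+IL-21 GFPpos group, against 1.75 and 1.51 in GFPneg, and 1.30 TPM in the TGFb+IL-6 GFPpos library, against 2.96 and 1.43 in GFPneg. Every GFPpos library was above the GFPneg libraries in the first culture and the single one below them in the second. The log2 differences were 0.17 and -0.43, and they differ by 0.60. That difference was not tested.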

How the results depend on the processing

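With median-ratio scaling the count of members called was 2 (main 0) for GFPpos against GFPneg in IL-12+IL-21, 6 (main 1) for the averaged GFP effect, 10 (main 16) for IL-12+IL-21 against IL-1b+IL-6+IL-23 GFPpos and 13 (main 3) for IL-12+IL-21 against TGFb+IL-6 GFPneg; quantile normalization gave 2, 8 and 11 for the first, second and last of these. Array weights gave 1 for the first and 2 for the averaged effect. Fits on only the libraries compared gave 1 (main 0) for the TGFb+IL-6 GFP contrast, 10 (main 16) for the GFPpos culture contrast, and 16 (main 25) and 14 (main 23) for IL-12+IL-21 and IL-12 against IL-1b+IL-6+IL-23 GFPneg. With at least 5000 genes, which adds 1 library, the counts were 0 for the averaged effect, 1 for the GFPpos culture contrast, 0 for IL-12+IL-21 and 1 for IL-12 against IL-1b+IL-6+IL-23 GFPneg, 8 for IL-1b+IL-6+IL-23 against TGFb+IL-6 (main 40), 0 for IL-12+IL-21 against TGFb+IL-6 and 7 for any difference (main 41). All 21 libraries gave 0 in each of these. The cause was not tested. Pseudocounts, gene filters, no trend and leaving out Mki67, an alternative chosen after seeing the data (counts of 39 against 40 and 40 against 41), kept every count within 1.5 times the main one.

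Leaving out each library in turn gave 0 to 0 for the 3 GFP contrasts, the difference between cultures and IL-12+IL-21 against IL-12, 0 to 2 for the averaged effect, 7 to 13 for the GFPpos culture contrast, 7 to 20 for IL-12+IL-21 and 8 to 24 for IL-12 against IL-1b+IL-6+IL-23 GFPneg, 30 to 39 for IL-1b+IL-6+IL-23 against TGFb+IL-6, 0 to 3 for IL-12+IL-21 against TGFb+IL-6 and 38 to 42 for any difference. Leaving out the lone TGFb+IL-6 GFPpos library gave no value for its contrast. The number of all genes called moved too, as in the GFPpos culture contrast, with 317 to 467 (main 476). The member counts of this section stand without the share of all genes called in the same fit. A shift in the members alone therefore cannot be told from a shift in all genes.

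The replicate numbers were not taken as a pairing, since the labels do not say what they share. Over 31 same-numbered pairs the correlation of deviations from the group means was -0.0861 to 0.265 (median 0.043, 8 over 0.1). Over 62 pairs of different number it was -0.218 to 0.112 (median -0.027, 2 over 0.1). Of 15 libraries, 13 correlated best with their own number, a hint from the data and not the design. The deviations sum to 0 within each group, so the pairs are not independent and these values cannot decide whether the numbers mark a pairing. With the replicate block the counts were 0 for the 3 GFP contrasts, the difference between cultures and IL-12+IL-21 against IL-12, 1 for the averaged effect, 17, 24 and 27 for the contrasts with main counts of 16, 25 and 23, and 40, 3 and 41 for the others.

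Of 1999 values of named genes under alternatives, 1675 kept direction and side of the threshold, 263 lost and 19 gained the call, and 42 changed sign, all with all 21 libraries. These log2 values were, for GFPpos against GFPneg in IL-12+IL-21, Mcm6 1.37, Mcm2 0.69, Cenpa 0.84 and Ube2c 1.73; in TGFb+IL-6, Rrm2 0.72; averaged, Mcm2 0.18, Mcm6 0.62, Ube2c 0.46, Cdc20 0.16 and Ccnb2 0.064; and for the difference between cultures, Mcm6 1.50, Fen1 1.22, Cdt1 0.39, Top2a 0.34 and Cenpa 0.81. For IL-12+IL-21 against IL-12 it was Top2a -0.30. For IL-12+IL-21 against IL-1b+IL-6+IL-23 GFPneg they were Pcna -0.80, Tk1 -0.15, Mcm6 -1.12, Mcm7 -0.78, Rrm1 -0.57, Cenpa -0.14, Cdk1 -0.15, Aurka -0.065 and Aurkb -0.10. For IL-1b+IL-6+IL-23 against TGFb+IL-6 they were Mcm6 0.49, Rrm2 0.76, Pcna 0.77, Mcm5 0.47, Mcm7 0.55, Rrm1 0.35, Uhrf1 0.33, Mcm4 0.34, Birc5 0.55 and Ube2c 0.99. For IL-12+IL-21 against TGFb+IL-6 it was Nusap1 1.38, and for IL-12 against IL-1b+IL-6+IL-23 they were Rrm2 -0.11, Rrm1 -0.26, Cdc45 -0.22, Mcm4 -0.59, Cdk1 -0.031 and Ccna2 -0.087.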

Other observations

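Ccne1, the other cyclin E, differed by replicate number more than by culture. The 6 libraries numbered 1 had 0.45 to 3.52 TPM, the 6 numbered 2 had 3.31 to 8.92 and the 4 numbered 3 had 7.02 to 14.3. The libraries numbered 3 all lay above those numbered 1 for this member alone of the 49. Over all genes 204 of 9592 (2.13%) did so, a share near that of the members. No library used and numbered 3 came from the TGFb+IL-6 culture, which had libraries numbered 1 and 2. Ccne1 was chosen here after its values were seen, and what the numbers stand for is not given in the labels.

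In the 5 libraries not used, the members were uneven. The S phase and G2/M sums were 42.0 and 190 TPM in IL-12 GFPneg replicate 1, 682 and 342 in IL-12+IL-21 GFPneg replicate 3, where 8 of 49 members lay above 0, 108 and 245 in TGFb+IL-6 GFPpos replicate 2, and 273.5 and 190 in TGFb+IL-6 GFPpos replicate 3, where 3 members did. In TGFb+IL-6 GFPneg replicate 3, all 49 members were listed at 0.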
